A study of Mus musculus with 10 samples.

Results

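Glycolysis and the hypoxia response were described through 35 mouse genes chosen by name: 2 glucose transporters, 15 enzymes of the path from glucose to pyruvate, 2 enzymes that set fructose 2,6-bisphosphate, 4 genes of lactate handling, 2 hypoxia-inducible factors, 2 of the prolyl hydroxylases that control them, and 8 hypoxia response genes. All 35 were found among the 49568 genes of the table. All 35 also reached 10 normalized counts in at least 5 of the 10 lines, a filter passed by 13089 genes. RNA sequencing compared 5 KPCAf/f lines (A1693, A1809, A1925, A2441 and A3992) with 5 KPC lines (A1081, A1620, A1625, A2031 and A2032), with 1 library from each line. All are mouse pancreatic cancer cell lines grown in DMEM with 10% fetal bovine serum, in 5% CO2 at 37 °C. KPC is the usual name of a genetically engineered mouse model of pancreatic cancer, and Af/f is read here as floxed alleles of Arid1a, the SWI/SNF subunit named in the study's title. The labels give no allele, Cre driver, strain, animal, age, passage, medium glucose, oxygen level or cell density for any line, and nothing in them says that the lines came from separate animals, so p-values measure the spread between these lines. Values below are normalized counts, the read counts divided by 1 scaling factor per library. Within each genotype they follow the order of lines given above.

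The libraries held 15124888 to 20419830 reads, so that 1 read was worth 0.818 to 1.32 normalized counts. Arid1a averaged 1465 ± 221 normalized counts in KPCAf/f lines and 2114 ± 844 in KPC lines (SD, n = 5 each), with a log2 difference of -0.42 (limma adjusted p = 0.563). The overlap of the groups came from A1620, at 819.9, while the KPCAf/f lines had 1253 to 1785 and the other 4 KPC lines 1915 to 3109. The log2 difference was -0.72 without A1620 (limma adjusted p = 0.0857) and -0.72 after the length correction (adjusted p = 0.0521). Reads over the whole gene cannot tell a deleted exon from an intact one. A1693, a KPCAf/f line, had 2.70 normalized counts of Pdx1, 10.8 of Cdh1 and 15.3 of Epcam, where the other KPCAf/f lines had 775 to 1679 of Pdx1 and 3143 to 11884 of Cdh1. A1620, a KPC line, stood apart in that long transcripts had fewer reads: each doubling of transcript length went with a change of -0.67 in its log2 level, against 0.10 to 0.14 in the 5 KPCAf/f lines and -0.02 to 0.04 in the other 4 KPC lines. Differences were therefore also computed after a correction for length, and without A1620 and A1693. Genotype also went with sex-linked transcripts: 4 Y-linked genes together had 0 to 3 reads in KPCAf/f lines and 1148 to 3415 in KPC lines. Xist, the X-inactivation RNA of female cells, had 5278 to 18451 normalized counts in 4 KPCAf/f lines, 3.601 in A1693 and 1.96 to 6.63 in KPC lines, so that A1693 had neither kind of transcript and its sex is not shown by them. Genotype and the sex of the cells cannot be told apart in these data. A list of 10 fibroblast markers summed to 15740 to 89000 normalized counts in KPCAf/f lines, against 66.0 to 173 in KPC lines. Of these 10 genes, 6 passed the filter, 3 of them (Col1a2, Col3a1 and Pdgfrb) through the KPCAf/f lines alone, so no count of calls is given. Dcn, Lum, Fap and Thy1 were the 4 below the filter, with Fap at 0 to 4.50 in KPCAf/f lines and at 0 in every KPC line. The summed list of 10 epithelial and pancreatic lineage markers had 6872 to 134801 normalized counts in KPCAf/f lines and 171395 to 368819 in KPC lines. Of its 10 genes limma called none. At an unadjusted p under 0.05, 4 were lower, beside 6.26% of all genes, and DESeq2 called 1 lower, beside 1.6%. Leukocyte markers summed to 407 to 2402 in KPCAf/f lines and 944 to 1695 in KPC lines. Of these 10 genes, 4 passed the filter and 4 were under 10 normalized counts in every line. Ptprc was never above 11.3, so that the sums came mostly from other genes of the list. In bulk RNA, fewer cells of a kind and less RNA per cell cannot be told apart.

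Glycolysis splits glucose into pyruvate in the cytosol. Hexokinase traps the sugar as a phosphate, phosphofructokinase commits it to the path, and pyruvate kinase yields ATP at the end. Lactate dehydrogenase then turns pyruvate into lactate, which leaves through monocarboxylate transporters. Most steps have several isoform genes with different tissue patterns. Under low oxygen the prolyl hydroxylases slow down, hypoxia-inducible factors accumulate, and with their partner ARNT they bind short DNA motifs that hold ACGTG or GCGTG near target genes. Many glycolytic genes are among these targets, and pancreatic tumours are known for high glucose use and poor oxygen supply.

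Of the 35 genes, 2 rose in KPCAf/f lines and none fell: Slc2a3, a high-affinity glucose transporter, and Eno2, the neuronal (gamma) enolase. The limma test at an adjusted p of 0.05 called 1.75% of all 13089 genes in either direction, 1.36% as higher and 0.39% as lower in KPCAf/f lines. At an unadjusted p under 0.05, 4 of the 35 were higher and 3 lower, beside 8.39% and 6.26% of all genes. On the reads recovered from the values, edgeR also called 2 higher and none lower, beside 1.11% and 0.206% of all genes. DESeq2 called 2 higher and 2 lower (Gapdh and Car9), beside 3.98% and 1.6%, and limma-voom called 1 higher (Eno2), beside 0.581%. Without A1620 and A1693 limma called 1 higher (Eno2), beside 1.08% of all genes. The same 2 genes were also the ones whose values in the 5 KPCAf/f lines all lay above those in the 5 KPC lines, a separation found in 2.84% of all genes, and no member separated the other way, as 1.69% of all genes did. The log2 difference, KPCAf/f minus KPC, was below 0 for 21 of the 35 genes, with a median of -0.20, where 50.8% of all genes were below 0 and their median was -0.01; under quantile normalization 17 of the 35 were below 0 and the median was 0.02.

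**Figure D1:**
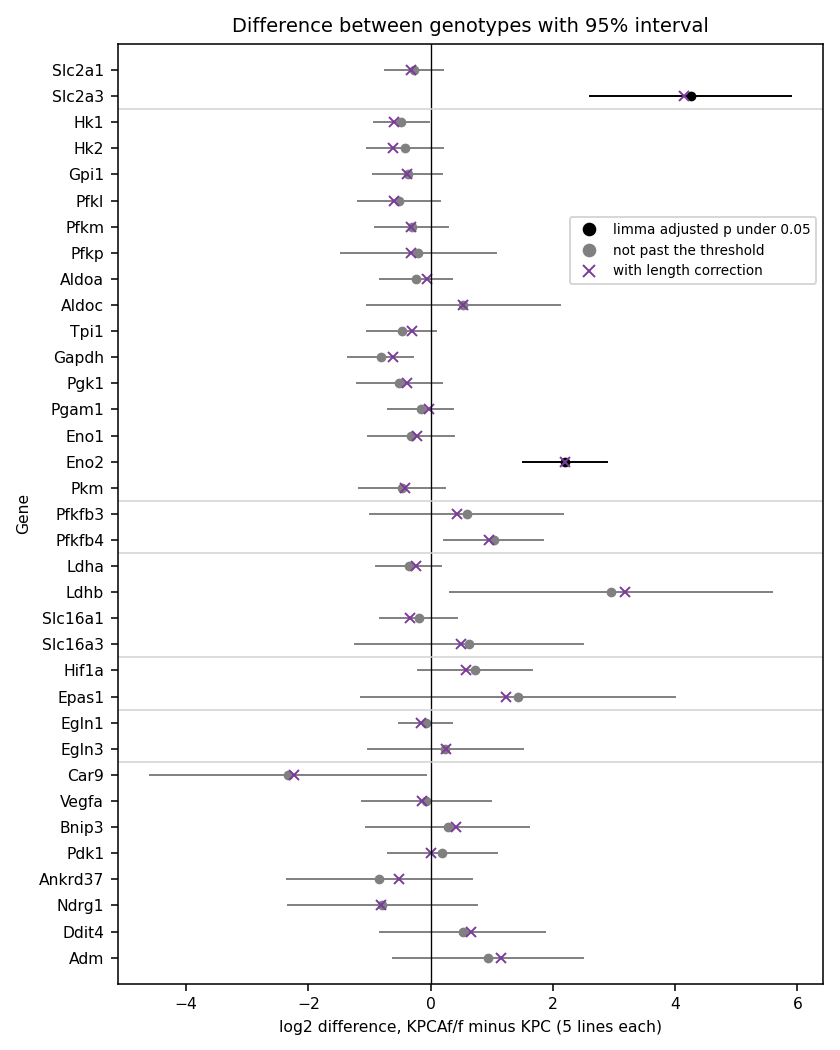
Difference between genotypes in log2(normalized count + 1) for each of the 35 genes, KPCAf/f minus KPC, with the limma 95% interval (5 lines each); black marks genes with an adjusted p under 0.05, and purple crosses the difference after the length correction. Slc2a3 at 4.25 and Eno2 at 2.20 are the 2 genes past the threshold. Of the 15 glycolytic enzymes 13 lie left of 0, beside 50.8% of all genes (11 of 15 under quantile normalization, not drawn).

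Glucose enters most cells through GLUT1, encoded by Slc2a1, while GLUT3, encoded by Slc2a3, is the main transporter of neurons. Slc2a3 had 317, 449, 80.9, 688 and 1051 normalized counts in KPCAf/f lines, against 36.9, 31.8, 4.89, 11.2 and 37.1 in KPC lines. Its lowest KPCAf/f line, A1925, was still above the highest KPC line, A2032. The means were 517 ± 371 in KPCAf/f lines and 24.4 ± 15.2 in KPC lines (SD, n = 5 each), a ratio of 21.2. The log2 difference was 4.25 (SE 0.75, 95% interval 2.60 to 5.90, limma adjusted p = 0.0143). The adjusted p was 0.0524 without A1620 and A1693, with a log2 difference of 4.49, and 0.101 by limma-voom on the recovered reads. The gene lies at chr6:122727809-122801640 on the minus strand (GRCm38, GENCODE M21).

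Slc2a1 did not pass the test. It had 2152, 1960.2, 1358, 1706 and 2181 normalized counts in KPCAf/f lines and 2782, 1968, 1975, 1662 and 3052 in KPC lines, and the groups overlapped. Its log2 difference was -0.27 (SE 0.22, 95% interval -0.75 to 0.21, limma adjusted p = 0.578). Per base of transcript, Slc2a3 made up 10.8, 15.9, 4.68, 24.9 and 28.4% of the transcripts of both transporter genes in KPCAf/f lines, against 1.08, 1.31, 0.204, 0.551 and 0.992% in KPC lines. Slc2a1 thus remained the more abundant of the pair in each of the 10 lines. The log2 ratio of Slc2a3 to Slc2a1, which does not depend on library scaling, was higher by 4.52 in KPCAf/f lines. An exact permutation test, with all 252 ways to split the lines, gave a two-sided p = 0.00794, the smallest these splits allow. Adjusted over the 9 isoform pairs tested, this was 0.0357. Without A1620 and A1693 the ratio difference was 4.867, with an adjusted p of 0.0857 in the exact permutation test of 4 against 4 lines.

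**Figure D2:**
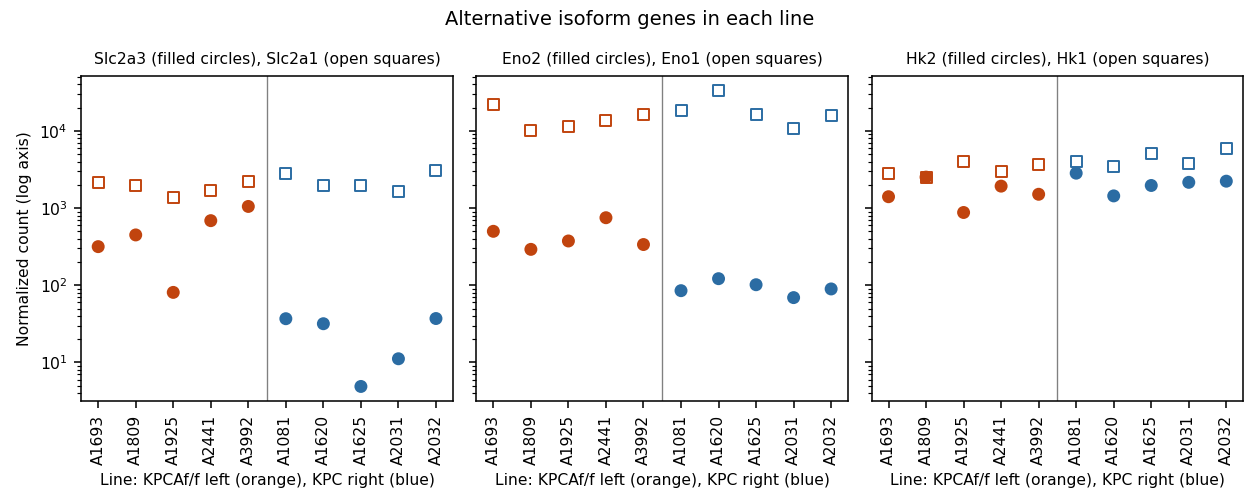
Normalized counts (log axis) of the alternative isoform genes of glucose transport (Slc2a3 and Slc2a1), enolase (Eno2 and Eno1) and hexokinase (Hk2 and Hk1) in each line, KPCAf/f on the left and KPC on the right of each panel. Slc2a3 and Eno2 sit higher in every KPCAf/f line than in any KPC line, while Slc2a1, Eno1, Hk1 and Hk2 overlap.

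Enolase converts 2-phosphoglycerate to phosphoenolpyruvate, with Eno1 the form of most tissues and Eno2 that of neurons and neuroendocrine cells. Eno2 had 501, 292, 375, 751 and 337 normalized counts in KPCAf/f lines, against 85.2, 122, 102, 69.3 and 89.7 in KPC lines. All 5 KPCAf/f lines were above the highest KPC line, A1620. The means were 451 ± 185 in KPCAf/f lines and 93.6 ± 19.6 in KPC lines (SD, n = 5 each), a ratio of 4.82. The log2 difference was 2.20 (SE 0.31, 95% interval 1.51 to 2.89, limma adjusted p = 0.0039), and leaving out each line in turn kept it between 1.99 and 2.33 with an adjusted p of at most 0.0145. Eno2 lies at chr6:124760053-124769673 on the minus strand.

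Eno1 had 22068, 9993, 11252, 13762 and 16099 normalized counts in KPCAf/f lines and 18383, 33059, 16282, 10668 and 15960.5 in KPC lines. These groups overlapped, with A1620 the highest line, and the log2 difference was -0.32 (SE 0.32, limma adjusted p = 0.65). Eno2 supplied 1.62, 2.08, 2.36, 3.81 and 1.497% of Eno1 and Eno2 transcripts per base in KPCAf/f lines, against 0.335, 0.267, 0.451, 0.469 and 0.406% in KPC lines. The Eno2 to Eno1 log2 ratio was higher by 2.52 in KPCAf/f lines (exact permutation p = 0.00794, 0.0357 over the 9 pairs). Without A1620 and A1693 the ratio difference was 2.498, with an adjusted exact permutation p of 0.0857. Eno1 thus gave nearly all enolase transcripts in every line of either genotype.

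The promoter windows of both enolase genes are shown because the pair share a reaction and differ in these lines. Each runs from 250 bases before to 50 bases after a transcription start listed by RefSeq (GRCm38.p6), with ACGTG or GCGTG on either strand (CACGT or CACGC when read here) in capitals. The Eno2 window is chr6:124769624-124769923 (minus strand) and holds no match. The Eno1 window is chr4:150236458-150236757 (plus strand), the most upstream of 3 listed for the gene, and holds 2 matches.
Eno2: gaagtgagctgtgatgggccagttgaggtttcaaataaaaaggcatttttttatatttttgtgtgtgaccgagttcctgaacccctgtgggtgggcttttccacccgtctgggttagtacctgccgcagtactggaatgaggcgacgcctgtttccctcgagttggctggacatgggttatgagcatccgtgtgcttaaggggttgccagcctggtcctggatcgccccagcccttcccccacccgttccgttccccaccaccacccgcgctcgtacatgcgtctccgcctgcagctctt
Eno1: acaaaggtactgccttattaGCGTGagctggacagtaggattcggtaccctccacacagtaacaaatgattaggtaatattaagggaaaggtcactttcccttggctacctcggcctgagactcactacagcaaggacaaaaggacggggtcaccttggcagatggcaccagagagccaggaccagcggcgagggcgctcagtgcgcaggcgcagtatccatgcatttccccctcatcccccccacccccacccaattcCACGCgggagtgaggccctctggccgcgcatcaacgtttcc
Among the 32 members with such a window, 25 (78.1%) held at least 1 match, against 43.8% of all 32851 windows of this length and 64.1% of the 9621 other tested genes with a window. The median GC content was 63.5% for the members and 61.3% for the other tested genes. A match is a run of letters and not a measured binding site, and no match in a window says nothing about the factors.

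The remaining steps of glycolysis gave no further calls. Of the 15 enzyme genes from hexokinase to pyruvate kinase, 1 rose (Eno2), none fell and 14 did not pass the test. The same test called 1.36% of all genes as higher and 0.39% as lower. The log2 differences of the 15 enzymes were below 0 for 13, with a median of -0.38, beside 50.8% of all genes. Under quantile normalization 11 of the 15 were below 0, with a median of -0.19, and Aldoa and Eno1 were above 0. Length correction left 13 of 15 below 0, with a median of -0.33, where 51.8% of all genes were below 0. At an unadjusted p under 0.05, Gapdh and Hk1 were lower and Eno2 higher, beside 6.26% and 8.39% of all genes.

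Hexokinases phosphorylate glucose, with Hk1 the form of most tissues and Hk2 the insulin-responsive form of muscle and fat that many tumours express. Hk1 had 2811, 2486, 4017, 2949 and 3678 normalized counts in KPCAf/f lines and 4019, 3443, 5158, 3798 and 5919 in KPC lines, overlapping groups (log2 difference -0.48, SE 0.21, limma adjusted p = 0.318). Hk2 had 1405, 2522, 878, 1927 and 1511 in KPCAf/f lines and 2836, 1439.9, 1965, 2158 and 2233 in KPC lines (log2 difference -0.42, SE 0.28, limma adjusted p = 0.512). The choice between both forms varied among lines, and no shift between genotypes was detected. Hk2 gave 27.9, 44.0, 14.5, 33.6 and 24.2% of Hk1 and Hk2 transcripts per base in KPCAf/f lines and 35.4, 24.5, 22.8, 30.6 and 22.6% in KPC lines. The Hk2 to Hk1 log2 ratio differed by 0.06 (exact permutation p = 0.905), and A1809 and A1925, both KPCAf/f, held the extremes.

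Gpi1, which turns glucose 6-phosphate into fructose 6-phosphate, had 5479 to 11428 normalized counts in KPCAf/f lines and 6915 to 13202 in KPC lines (log2 difference -0.38, limma adjusted p = 0.517). Phosphofructokinase, the committed step, is built from liver (Pfkl), muscle (Pfkm) and platelet (Pfkp) subunits. Per base, Pfkl supplied 49.3 ± 13.4% of the transcripts of these 3 genes in KPCAf/f lines and 53.9 ± 5.27% in KPC lines. Pfkm supplied 34.5 ± 14.4% in KPCAf/f lines and 31.9 ± 7.75% in KPC lines, and Pfkp 16.3 ± 8.96% and 14.2 ± 8.02% (SD, n = 5 each). No member of the family passed the test. The subunit mix differed more among lines than between genotypes. Pfkm was the leading subunit in A2441 with 52.1%, close to Pfkl in A1925 with 46.8 and 47.3%, and Pfkl led in the other 8 lines. Pfkp ranged over 352 to 1729 normalized counts in KPCAf/f lines and 415 to 3472 in KPC lines. It shares 748 exonic bases with Pitrm1 on the opposite strand, and the strand setting of the counting is not given in the sources used here.

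Aldolase splits fructose 1,6-bisphosphate, with Aldoa the muscle and general form and Aldoc the brain form. Aldoa averaged 17579 ± 3386 normalized counts in KPCAf/f lines and 21434 ± 7677 in KPC lines (SD, n = 5 each; log2 difference -0.24, limma adjusted p = 0.696, and 0.10 under quantile normalization). Aldoc had 443, 389, 647, 100.1 and 552 in KPCAf/f lines and 292, 107, 245, 99.5 and 1261 in KPC lines. Both genotypes held a line with about the same low value, 100.1 in A2441 and 99.5 in A2031, and lines several times higher, and the log2 difference of 0.53 had an interval from -1.04 to 2.11. Aldoc was 0.406 to 2.34% of aldolase transcripts per base in KPCAf/f lines and 0.180 to 2.77% in KPC lines, with A2032 highest. Tpi1, which interconverts the triose phosphates made by aldolase, had 8882 to 15392 in KPCAf/f lines and 11914 to 22709 in KPC lines (log2 difference -0.48, limma adjusted p = 0.419).

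Gapdh, which oxidises glyceraldehyde 3-phosphate and is often used as a reference transcript, had 20013, 14633, 13682, 14614 and 14221 normalized counts in KPCAf/f lines and 30360.2, 39535, 21779, 18668 and 29275 in KPC lines. Of the KPCAf/f lines only A1693 was above the lowest KPC line, A2031. The means were 15433 ± 2589 in KPCAf/f lines and 27924 ± 8155 in KPC lines (SD, n = 5 each), and the log2 difference was -0.82 (SE 0.24, 95% interval -1.35 to -0.29). Its limma adjusted p of 0.138 (unadjusted p = 0.0057) was above the threshold, while DESeq2 on the recovered reads gave an adjusted p of 0.0157. Gapdh has 144 annotated pseudogenes with at least 90% identity over at least 50% of its transcript. Averaged over the lines, their summed counts were 18.3% of the gene's own. The summed counts of these copies differed by line, from 2542 to 3905 in KPCAf/f lines and from 1358 (A1081) to 7924 (A1625) in KPC lines. With these copies added, the log2 difference was -0.80. Where reads of Gapdh were counted among the copies cannot be told from the table, and the value is uncertain to that extent.

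Pgk1 and Pgam1 carry the path on to 2-phosphoglycerate. Pgk1, an X-linked gene, had 3507 to 8784 normalized counts in KPCAf/f lines and 5817 to 14339.8 in KPC lines, with a log2 difference of -0.51 (limma adjusted p = 0.478). Pgam1 was the steadiest enzyme over KPCAf/f lines, at 1908 to 2324, against 1294 to 3286 in KPC lines (log2 difference -0.16, limma adjusted p = 0.772). Pkm, the pyruvate kinase of most tissues and tumours, had 57739, 21645, 39363, 45413 and 54643 in KPCAf/f lines and 78144, 73444, 47191, 46008 and 49341 in KPC lines. These groups overlapped, with A1809 lowest (log2 difference -0.47, limma adjusted p = 0.52). The counts are per gene, so the M1 and M2 forms made from Pkm by alternative splicing were not separated. Per kilobase of transcript Pkm was the most abundant of the 35 genes, at 17993.7 normalized counts per kilobase in KPCAf/f lines and 24188 in KPC lines, followed over all lines by Ldha, Gapdh and Aldoa.

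Pfkfb3 and Pfkfb4 make and break fructose 2,6-bisphosphate, the main activator of phosphofructokinase, and both are known hypoxia targets. Neither passed the test. Pfkfb3 had 317, 3657, 352, 313 and 1100.5 normalized counts in KPCAf/f lines and 886, 147, 455, 674 and 448 in KPC lines, so that a single line, A1809, stood far above the rest. Its log2 difference of 0.59 (SE 0.72, limma adjusted p = 0.716) was -0.02 without A1809. Pfkfb4 had 214, 403, 175, 333 and 149.8 in KPCAf/f lines and 83.3, 96.7, 92.9, 145 and 189.7 in KPC lines. Of the KPCAf/f lines 3 were above every KPC line, and the log2 difference was 1.03 (SE 0.37, limma adjusted p = 0.227, unadjusted p = 0.0173).

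Lactate dehydrogenase A favours the making of lactate and lactate dehydrogenase B its use. Ldha had 33305, 18688, 27139, 25701 and 28005 normalized counts in KPCAf/f lines and 33958, 42245, 29068, 24437 and 41613 in KPC lines (log2 difference -0.36, SE 0.24, limma adjusted p = 0.511; 0.10 under quantile normalization). Ldhb had 415, 94.1, 64.9, 10.1 and 25.6 in KPCAf/f lines, against 1.89, 109.9, 8.81, 1.12 and 3.09 in KPC lines. Apart from A1620, with 109.9, the KPC lines were all below the lowest KPCAf/f line. The Ldhb log2 difference of 2.96 (SE 1.20, 95% interval 0.32 to 5.59) missed the threshold (limma adjusted p = 0.289) and passed it with line weights in the fit (adjusted p = 0.0464). Ldhb supplied at most 1.70% of transcripts of both subunits per base, in A1693. The Ldhb to Ldha log2 ratio was higher by 3.32 in KPCAf/f lines (exact permutation p = 0.0397, 0.119 over the 9 pairs), and without A1620 by 4.20 (adjusted exact permutation p = 0.0476).

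Slc16a1 encodes MCT1, a lactate transporter of most cells, and Slc16a3 encodes MCT4, the hypoxia-induced exporter of highly glycolytic cells. Slc16a1 had 2387 to 5511 normalized counts in KPCAf/f lines and 2498 to 5954 in KPC lines (log2 difference -0.20, limma adjusted p = 0.763). Slc16a3 had 447, 1072, 282, 1893 and 2839.7 in KPCAf/f lines and 1490.0, 301, 725, 117 and 2144 in KPC lines. Slc16a3 thus varied widely within each genotype, and its log2 difference was 0.63 (SE 0.85, limma adjusted p = 0.746). Per base it was 4.96 to 54.8% of the transcripts of both transporter genes in KPCAf/f lines and 1.97 to 28.8% in KPC lines, and A3992, a KPCAf/f line, was the only one where it outnumbered Slc16a1.

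Of the 9 isoform pairs tested, those of glucose transport and enolase shifted between genotypes. The other 7 had exact permutation p-values of 0.0397 (Ldhb to Ldha) to 0.905 (Hk2 to Hk1) before adjustment. For Pfkp to Pfkl the log2 ratio differed by 0.31, for Aldoc to Aldoa by 0.77, for Slc16a3 to Slc16a1 by 0.83, for Pfkfb4 to Pfkfb3 by 0.44 and for Epas1 to Hif1a by 0.70, each with an adjusted exact permutation p of 0.679.

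**Figure D3:**
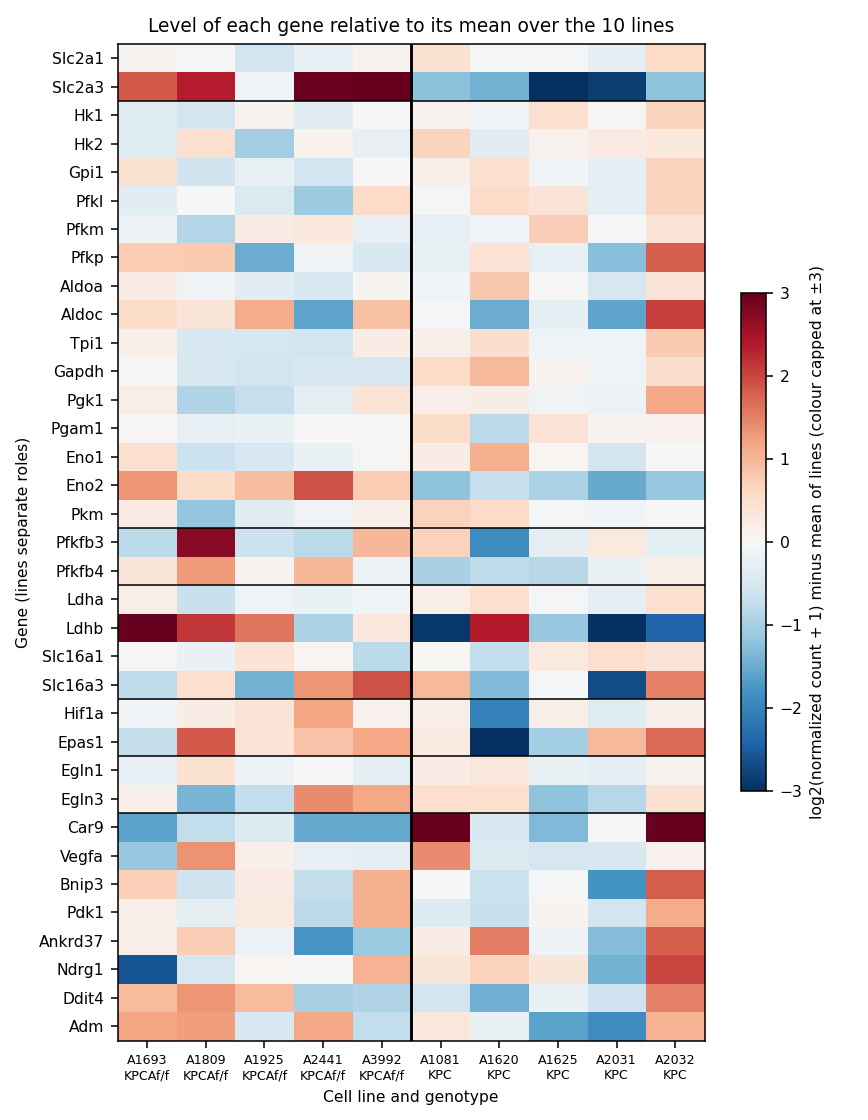
Level of each of the 35 genes in each line as log2(normalized count + 1) minus the gene's mean over the 10 lines (colours capped at 3 either way), with the 5 KPCAf/f lines left of the 5 KPC lines. Slc2a3 and Eno2 split the lines by genotype, and A2032 is above the mean for 31 of the 35 genes.

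Hif1a encodes the oxygen-regulated subunit of HIF-1, which is controlled mainly at the protein level, and Epas1 encodes that of HIF-2. Hif1a had 2893, 3562, 3959, 6911 and 3315 normalized counts in KPCAf/f lines and 3506, 751, 3449.8, 2386 and 3425 in KPC lines. A2441 was highest and A1620 lowest, and the log2 difference of 0.73 (SE 0.43, limma adjusted p = 0.448) was 0.32 without A1620. Epas1 had 103, 609, 225, 307 and 379 in KPCAf/f lines and 208, 2.65, 83.2, 334 and 547 in KPC lines. A1620 again was lowest, and the log2 difference of 1.43 (SE 1.17, limma adjusted p = 0.587) was 0.22 without it. Per base, Epas1 was 2.95 to 12.8% of the transcripts of both factors in KPCAf/f lines and 0.301 to 12.0% in KPC lines.

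Egln1 and Egln3 encode the prolyl hydroxylases PHD2 and PHD3, the first being the main oxygen sensor and the second itself a hypoxia target. Egln1 was among the steadiest members, at 1408 to 2368 normalized counts in KPCAf/f lines and 1423 to 2186 in KPC lines (log2 difference -0.08, 95% interval -0.52 to 0.35). Egln3 had 1060.5, 361, 565, 2537 and 2130.4 in KPCAf/f lines and 1339, 1356, 412, 522 and 1304 in KPC lines. It varied several-fold in both genotypes, and its log2 difference was 0.24 (SE 0.58, limma adjusted p = 0.863).

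None of the 8 hypoxia response genes passed the limma test, and 4 had log2 differences above and 4 below 0. At an unadjusted p under 0.05, 1 of them (Car9) was lower, beside 6.26% of all genes. Car9 encodes a membrane carbonic anhydrase that is a classic marker of hypoxia. It had 12.6, 23.7, 30.4, 13.5 and 13.2 normalized counts in KPCAf/f lines, against 1017, 29.1, 15.7, 39.1 and 342 in KPC lines. The difference rested on A1081 and A2032, since the other 3 KPC lines were at 15.7 to 39.1, near the range of KPCAf/f lines. The means were 18.7 ± 7.99 in KPCAf/f lines and 289 ± 429 in KPC lines (SD, n = 5 each), with a log2 difference of -2.33 (SE 1.03, limma adjusted p = 0.327). DESeq2 on the recovered reads gave an adjusted p of 0.00112. The antisense gene Gm12454 shares 214 exonic bases with Car9 and averaged 19.3 normalized counts in KPCAf/f lines and 27.4 in KPC lines, so that the low Car9 values are uncertain.

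The Car9 window (RefSeq, GRCm38.p6, chr4:43506776-43507075, plus strand) is shown because its level varied so widely among lines of 1 genotype. It holds 1 match in capitals, which starts 18 bases before the listed start.
Car9: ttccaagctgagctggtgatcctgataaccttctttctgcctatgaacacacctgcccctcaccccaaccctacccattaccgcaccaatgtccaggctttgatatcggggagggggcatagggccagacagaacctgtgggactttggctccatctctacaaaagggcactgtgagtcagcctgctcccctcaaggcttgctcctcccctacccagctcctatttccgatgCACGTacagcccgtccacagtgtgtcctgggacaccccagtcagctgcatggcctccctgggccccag

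Vegfa, the growth factor of blood vessels, had 999, 5611, 2443, 1866 and 1792 normalized counts in KPCAf/f lines and 5905, 1650.5, 1564, 1590.2 and 2405 in KPC lines. A line of each genotype, A1809 and A1081, stood above the rest, and the log2 difference was -0.07 (SE 0.48, 95% interval -1.13 to 0.99). Bnip3, which marks mitochondria for removal, had 179.9 to 613 in KPCAf/f lines and 83.8 to 1034 in KPC lines (log2 difference 0.28, limma adjusted p = 0.848). Pdk1, a kinase that keeps pyruvate out of the mitochondrial dehydrogenase complex, had 666 to 2404 in KPCAf/f lines and 723 to 2488 in KPC lines (log2 difference 0.19, limma adjusted p = 0.844). In all 3 the spread among lines of a genotype exceeded the difference between genotypes.

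Ndrg1, a stress-response gene strongly induced by low oxygen, had 289.9, 1253, 1829.5, 1759 and 3664 normalized counts in KPCAf/f lines and 2251, 2859.9, 2256, 663 and 7026 in KPC lines. A1693 was lowest and A2032 highest, and the log2 difference was -0.80 (SE 0.70, limma adjusted p = 0.61), or -0.24 without A1693 and -0.40 without A2032. Ddit4, an inhibitor of mTORC1 signalling, had 1157, 1506, 1166, 300.2 and 322 in KPCAf/f lines and 406, 219.9, 526, 391 and 1717 in KPC lines. Within KPCAf/f lines 3 were at 1157 to 1506 and 2 at 300.2 and 322, and the log2 difference was 0.53 (SE 0.61, limma adjusted p = 0.706). Ankrd37, a small hypoxia-induced gene, had 10.1 to 63.0 in KPCAf/f lines and 14.5 to 132 in KPC lines; it shares 57 exonic bases with Ufsp2, which averaged 824, so its counts are uncertain. Adm, the vasodilator peptide adrenomedullin, was the least abundant member per kilobase, at 6.17 to 27.8 normalized counts in KPCAf/f lines and 2.24 to 23.7 in KPC lines.

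**Figure D4:**
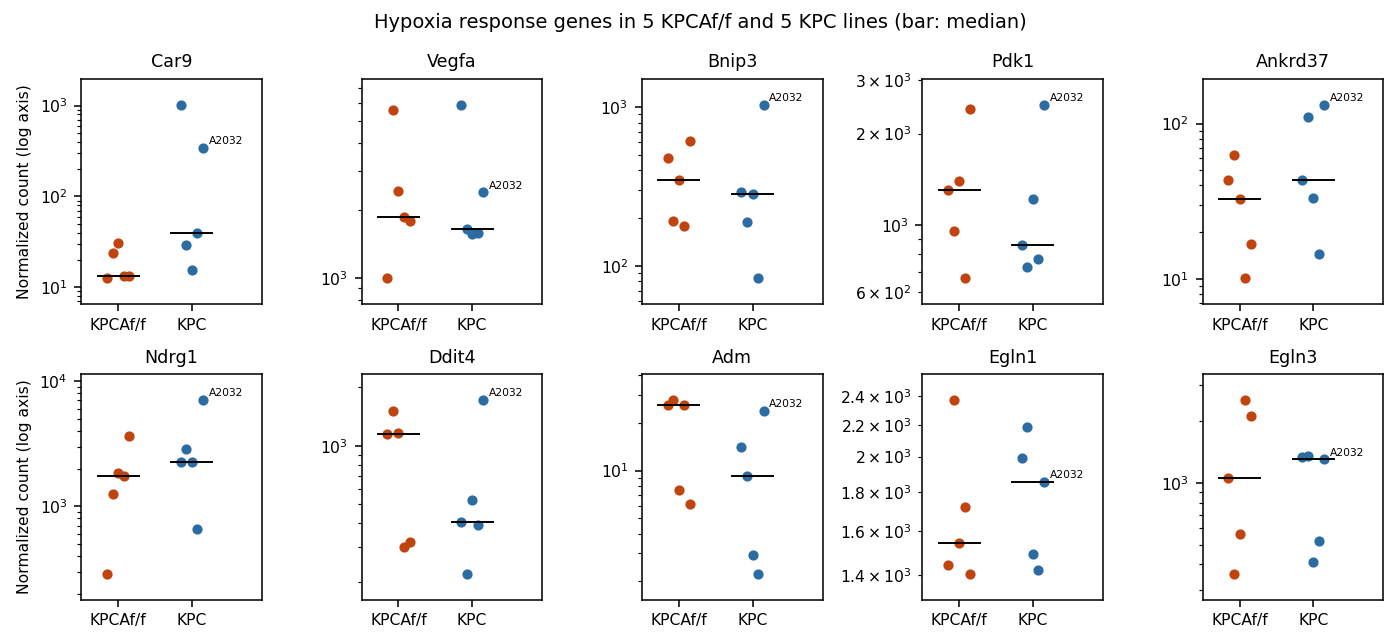
Normalized counts (log axis) of the 8 hypoxia response genes and the 2 prolyl hydroxylase genes in the 5 KPCAf/f lines (left in each panel) and the 5 KPC lines (right), with A2032 marked and bars at the median. The genotypes overlap in every panel, and A2032 lies high in most, with the highest Bnip3, Pdk1, Ankrd37, Ndrg1 and Ddit4.

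The hypoxia response genes differed by line. A2032, a KPC line, was above the mean of lines for all 10 of these genes and highest for 5 of them, with a median deviation of 1.31 on the log2 scale. It was also above the mean for 14 of the 15 glycolytic enzymes and highest for 7. A2031, of the same genotype, was above the mean for 0 of the 10 hypoxia genes (median deviation -0.74) and for 3 of the 15 enzymes. How often either line lay above the mean over all tested genes was not counted, so these counts may not be particular to these genes. Among KPCAf/f lines, A1809 had the lowest value of any line for 6 of the 15 enzymes (median deviation -0.47), yet the highest Pfkfb3, Epas1, Hk2-to-Hk1 share and Pfkfb4 of all lines. Over the 35 genes the median SD of log2 values was 0.57 in KPCAf/f lines and 0.59 in KPC lines, beside 0.44 and 0.57 over all tested genes. The SD was larger over KPCAf/f lines for 15 of the 35 members, a direction found in 42.3% of all genes. The KPC spread includes A1620, the line whose levels fell with transcript length, and no SD was computed without it. Oxygen, glucose and cell density at harvest are not given for any line, and their part in these patterns was not tested.

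Slc2a3 and Eno2 lie on the same chromosome, 1958.4 kb apart. Eno2 is 40.9 kb from Tpi1. Chromosome 6 holds 6 of the 35 members, and 4.78% of all tested genes. Between Slc2a3 and Gapdh (chr6:122727809-125166467) 31 genes were tested, with a median log2 difference of -0.11. Slc2a3 and Eno2 were the only ones called, beside 1.75% of all genes. Members set the ends of the interval, Slc2a3 among them, so that its count of calls is not a test. At an unadjusted p under 0.05, 6 of the 31 were higher and 3 lower, beside 8.39% and 6.26% of all genes. Slc2a3 and Eno2 were among the higher and Gapdh among the lower.

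Other genes of these pathways were taken from lists of known members. Of 31 further glycolysis enzymes and transporters, 19 passed the filter and none was called by limma, edgeR or DESeq2. At an unadjusted p under 0.05, 2 were lower and 0 higher, beside 6.26% and 8.39% of all genes. Those with the smallest p were Tigar, a phosphatase that lowers fructose 2,6-bisphosphate (log2 difference -0.60, limma adjusted p = 0.266), Pgm2, a phosphoglucomutase (-0.52, adjusted p = 0.32), and Pklr, the liver and red cell pyruvate kinase. Pklr had 0.900, 139, 266, 13.5 and 989 normalized counts in KPCAf/f lines and 222, 192, 747, 770.0 and 704 in KPC lines (log2 difference -2.81, SE 1.43, limma adjusted p = 0.392). Its low KPCAf/f values were in A1693 and A2441, while A3992 was the highest of all lines.

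Of 13 genes of pyruvate oxidation, 13 passed the filter and none was called by limma, edgeR or limma-voom. At an unadjusted p under 0.05, 1 was higher, beside 8.39% of all genes. That gene was Pdk4, a fasting-induced pyruvate dehydrogenase kinase, with 1194, 124, 964, 100.1 and 209.7 normalized counts in KPCAf/f lines and 129, 5.30, 24.5, 13.4 and 94.8 in KPC lines. A single KPC line, A1081, reached the KPCAf/f range. The log2 difference was 3.34 (SE 0.97, limma adjusted p = 0.137). Pdk4 was the 1 gene of this list that DESeq2 called, beside 3.98% of all genes called higher. Its relatives Pdk2 (0.85, adjusted p = 0.346) and Pdk3 (1.02, adjusted p = 0.388) did not pass the limma test. Of 16 genes of gluconeogenesis and glycogen, 11 passed the filter and limma, edgeR and DESeq2 called none. At an unadjusted p under 0.05, 1 was lower, beside 6.26% of all genes. It was Fbp2, the muscle fructose-bisphosphatase, at 193 ± 189 in KPCAf/f lines and 713 ± 375 in KPC lines (SD, n = 5 each). Its log2 difference was -3.06 (limma adjusted p = 0.257). A1693 was the lowest line and enlarged this value, which was -1.86 without it (limma adjusted p = 0.229). Of the KPCAf/f lines 4 were below every KPC line, and A3992, at 419, overlapped them.

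Of 16 further regulators of the HIF pathway, 15 passed the filter and limma, edgeR and DESeq2 called none. At an unadjusted p under 0.05, 1 was lower, beside 6.26% of all genes. It was Siah2, a ubiquitin ligase that targets prolyl hydroxylases (log2 difference -0.69, limma adjusted p = 0.296). Arntl, a clock gene of the same protein family as Arnt, had a log2 difference of 0.53 (limma adjusted p = 0.478). Arnt, the shared partner of both factors, had a log2 difference of 0.41 (limma adjusted p = 0.561). Of 43 further hypoxia response genes, 41 passed the filter. Among them limma called 1 higher and none lower, beside 1.36% and 0.39% of all genes. That gene was Lox, which encodes lysyl oxidase, a crosslinker of collagen. Lox had 2463, 703, 3065, 1119 and 1826 normalized counts in KPCAf/f lines, against 0.947, 9.27, 0.978, 3.35 and 0 in KPC lines. Every KPCAf/f line was at least 703 and no KPC line exceeded 9.27 (log2 difference 9.17, SE 0.65, limma adjusted p = 4.17e-05). Lox passed the filter only through the KPCAf/f lines where it is high, so that it had to differ, and its call supports nothing beyond these values. Lox is also a gene of fibroblasts and matrix, and it moved with the fibroblast markers given above, whose part in its difference was not tested.

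The median log2 difference over these 41 genes was 0.43, and 0.15 without A1620, beside -0.01 over all tested genes in both cases. At an unadjusted p under 0.05, 8 of the 41 were higher and 1 lower, beside 8.39% and 6.26% of all genes. Both the median and the 8 include Lox, which had to differ, so that the comparison with all genes is no test. Mxi1, a MYC antagonist, had 1443, 1083, 1266, 1024 and 1086 normalized counts in KPCAf/f lines, all above the 816, 372, 619, 529 and 884 of KPC lines (log2 difference 0.93, limma adjusted p = 0.105). Such a separation was found in 2 of the 41 genes, Lox and Mxi1, beside 2.84% of all genes. Plod2, a collagen lysyl hydroxylase, had 546 to 1136 in KPCAf/f lines and 83.5 to 864 in KPC lines (log2 difference 1.73, limma adjusted p = 0.141). Tmem45a averaged 149 ± 128 in KPCAf/f lines and 12.4 ± 15.2 in KPC lines (SD, n = 5 each; log2 difference 3.29, limma adjusted p = 0.142). Slc2a3 and Eno2 rose in the same 5 lines that had higher fibroblast marker sums, lower epithelial marker sums and few Y-linked reads, and the part of these in both differences was not tested.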

How the data were processed

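The table holds 1 column for each of 10 lines. The deposited signal is a count of reads per gene that the authors had scaled by a DESeq2 size factor for each library. The submitters' processing notes list STAR 2.5.2b, featureCounts (Subread 1.5.0p3), Trimmomatic 0.36, bcl2fastq 1.8.4, and DESeq2 1.14.1 (R 3.3.2), with the builds GRCm38.p5 and mm9 named without a role. Per the labels' protocols, stranded mRNA libraries were made from 200 ng of RNA; which annotation and strand setting the counting used is not given in these sources. Dividing by what 1 read is worth gave whole reads, within 0.001 read, for 100.0% of values in every library, and no library was a copy of another (lowest chi-square per degree of freedom 55.6).

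The 35 genes, the gene lists and the tests were chosen with earlier results of these data known. The main test was limma 3.58.1 in R 4.3.3, with an intensity trend, on log2(normalized count + 1) of the 13089 genes with at least 10 normalized counts in at least 5 lines, two-sided, with Benjamini-Hochberg adjustment over all of them and calls at an adjusted p under 0.05. Fold changes on this scale understate changes of low genes. Alternatives were a pseudocount of 0.5 or 8, no filter, a mean of at least 100, TMM and quantile scaling, line weights, the recovered reads tested with limma-voom, DESeq2 1.42.0 or edgeR 4.0.16, a loess correction for transcript length, and leaving out lines. Of the tested genes 97.7% had a length, that of the longest protein-coding transcript in GENCODE M21 (GRCm38). Isoform pairs were compared by their log2 ratio in an exact permutation test over the 252 splits, adjusted over 9 pairs; shares divide each count by transcript length. Promoter windows come from RefSeq, and Slc2a3, Epas1 and Ndrg1 had none in that table; where several are listed for a gene the most upstream was used. Gene copies were found with blastn 2.17.0. On data simulated from these 13089 genes, limma recovered 62% of 4-fold and 88% of 16-fold changes, and 6.25% of its calls were false. False calls were 4.52% for edgeR, 5.84% for limma-voom and 25.11% for DESeq2. The simulated counts were drawn once and independently for each gene. They held no length trend like that of A1620 and no shift shared by the genes of a line, so these rates may not hold here. In each list the text names the genes called and up to 3 more by smallest p. All intervals are 95% intervals of the fit.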

Additional observations from a re-analysis of the deposited data

Results flagged for a closer look

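The 35 genes were screened in each genotype for a line whose distance to its nearest neighbour took up most of the group's range (above Dixon's 95% value of 0.71 for 5 lines). Of the 70 groups screened, 3 met this, and chance gives about 1 in 20. Aldoc was at 100.1 normalized counts in the KPCAf/f line A2441, where the other 4 KPCAf/f lines had 389 to 647. Gapdh was at 20010 (rounded) in the KPCAf/f line A1693, where the other 4 had 13682 to 14633. Hif1a was at 751.1 in the KPC line A1620, where the other 4 KPC lines had 2386 to 3506. A1693 is the line with the least Cdh1, and A1620 the one whose levels fall with transcript length; neither was tested as the source of these values.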

How the results depend on the processing

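The 2 calls among the 35 genes held in most of 22 alternatives: Eno2 was called in all, and Slc2a3 was lost by limma-voom and without A1620 and A1693 together, each leaving 1 member higher. Members called lower numbered 2 by DESeq2 (Gapdh and Car9), and Ldhb was newly called with line weights. Over all genes, those higher in KPCAf/f lines numbered 109 with a mean of at least 100, 403 with line weights, 521 by DESeq2, 76 by limma-voom and 122 to 227 with each line left out. Those lower numbered 22, 183, 210, 29 and 24 to 91 in the same order, and 27 by edgeR. Further hypoxia response genes called higher numbered 5 with line weights, 3 by DESeq2 and up to 2 with a line left out; pyruvate oxidation genes called higher numbered 1 with line weights and 1 by DESeq2. Without A1620 and A1693 the log2 ratio differences were 2.498 for Eno2 to Eno1 and 4.867 for Slc2a3 to Slc2a1. For Ldhb to Ldha the difference was 3.584, and each of these pairs had an adjusted exact permutation p of 0.0857. Splits of 4 against 4 lines allow no p as small as splits of 5 against 5 lines. With each line left out, Ldhb to Ldha ran from 2.71 to 4.20, Epas1 to Hif1a from -0.094 to 1.17 and Hk2 to Hk1 from -0.20 to 0.36, and the last was -0.0086 after length correction. Among 767 values of single members, 20 in 10 genes changed sign, none of them past the threshold. Under quantile normalization Aldoa was 0.10, Eno1 0.022, Ldha 0.10 and Vegfa 0.039. Line weights gave 0.019 for Egln1 and 0.089 for Vegfa, and leaving out A1620 and A1693 gave 0.043 for Egln1 and 0.094 for Vegfa. Bnip3 was -0.047 by edgeR and -0.06 by DESeq2. With each line left out, Bnip3 ran from -0.14 to 0.76, Egln3 from -0.085 to 0.62, Pdk1 from -0.054 to 0.49, Pfkfb3 from -0.016 to 0.87, Pfkp from -0.55 to 0.22 and Vegfa from -0.42 to 0.28. Ndrg1 kept its sign, from -1.25 to -0.24. The cause was not tested. No paired analysis was possible because the labels give no pairing between lines of the 2 genotypes.

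Adm, Ldhb, Slc2a3, Epas1 and Ankrd37 each had fewer than 10 reads in at least 1 line, which limits the precision of those values. With 5 lines a group, 62% of 4-fold changes were recovered in simulated data, which were simpler than these libraries, so smaller differences can go uncalled.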
